A study of Homo sapiens with 8 samples.

Results

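Syndecans and glypicans are the cell surface proteoglycans that carry heparan sulfate, and 7 of the 8 members looked for by gene symbol had a row among the 27696 genes of the count table: the syndecans SDC1, SDC2, SDC3 and SDC4 and the glypicans GPC1, GPC4 and GPC6. GPC3 was not analysed here. The study addressed how secretions of senescent fibroblasts act on normal fibroblasts. RNA was sequenced from IMR90 cells, a line of normal human lung fibroblasts, after 3 days in medium taken from IMR90 ER:RAS fibroblasts, whose RAS oncogene is switched on by 4-OHT. The medium came from days 0, 4, 7 and 10 of that induction, and the recipient cells are named D0, D4, D7 and D10 accordingly. Every group, D0 included, therefore received medium conditioned by the ER:RAS line, and the recipients themselves were IMR90 cells without a label of any other genotype. There were 8 libraries, with 1 library per group in each of 2 independent experiments, so n = 2 for each mean ± SD. Replicate 1 of every group was taken as experiment 1 and replicate 2 as experiment 2.

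Syndecans span the membrane and have short cytoplasmic tails that bind scaffold proteins, whereas glypicans are held at the membrane by a lipid anchor. The heparan sulfate chains of both families hold growth factors, chemokines and matrix proteins at the cell surface and act as co-receptors for them. Enzymes in the Golgi build and sulfate the chains, and proteases can shed the core proteins from the cell. In fibroblasts SDC4 is known as a component of focal adhesions, where it acts with integrins on fibronectin.

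All 7 genes passed the filter on low counts, with between 495 and 12241 reads per library out of totals between 11708193 and 13395912. Levels are given as CPM, the count scaled to the library size after TMM normalization, and levels of different genes are compared per kilobase of exon. None of the 7 genes shared a 50-base word with another gene, and only GPC6 overlapped another gene, by 7.36% of its exon bases on the opposite strand. Defining markers of fibroblasts were present in all libraries, at a summed level between 10100 and 46800 CPM over 9 of 9 genes. The 4 epithelial markers with a row summed to at most 0.82 CPM, the 3 endothelial markers to at most 3.74 CPM and the 3 immune markers to at most 1.03 CPM. Since these are bulk libraries, fewer cells expressing a gene and less of its RNA per cell cannot be told apart.

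SDC4 was the most abundant syndecan per kilobase before exposure to senescent medium and SDC1 the least abundant. At D0 the level was 163 ± 22.9 CPM per kilobase for SDC4, 118 ± 20.9 for GPC1 and 75.2 ± 19.7 for SDC3. A lower tier held GPC4 at 26.2 ± 8.72, SDC2 at 26 ± 0.368, SDC1 at 14.2 ± 0.41 and GPC6 at 9.64 ± 1.39 CPM per kilobase. Among neighbours in this order only GPC4 and SDC2 overlapped between libraries. At D10 GPC1 stood at 78 ± 33.8 and SDC4 at 75.3 ± 0.82 CPM per kilobase, and these overlapped, as did SDC3 at 65.3 ± 43.4. SDC1, at 15.9 ± 2.88 CPM per kilobase, then stood above SDC2, at 12.7 ± 0.226, with no overlap between their libraries. This order rested on the division by exon length. In CPM the D10 libraries overlapped, at 49.7 and 64.4 for SDC1 and 57 and 58.5 for SDC2.

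**Figure D1:**
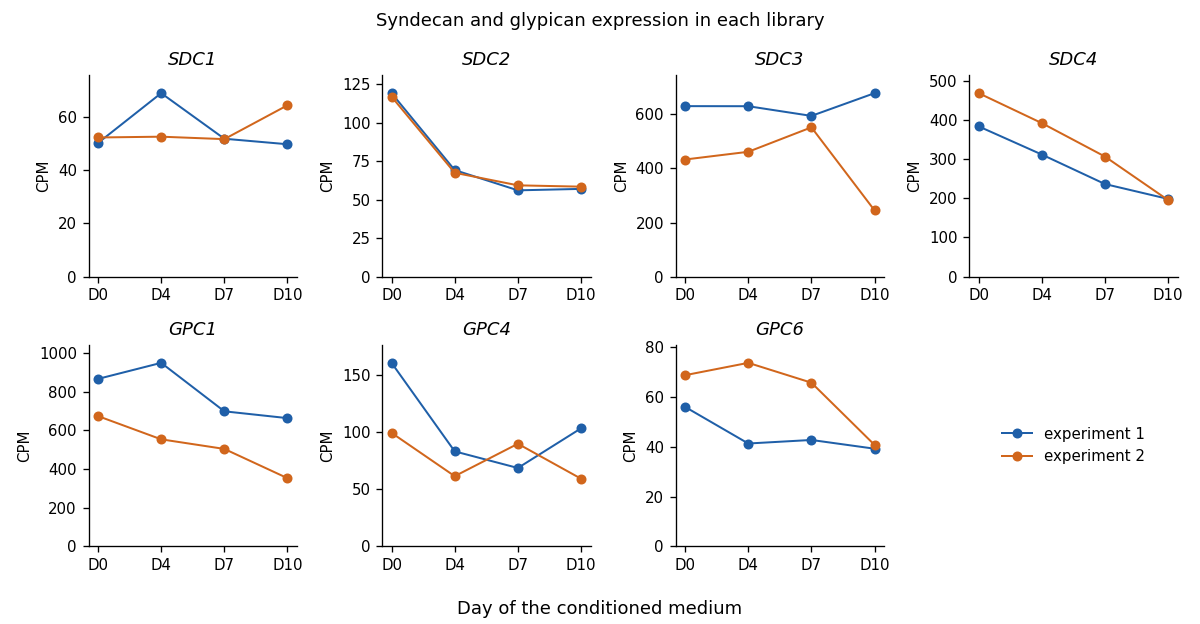
Expression of the 4 syndecans and 3 glypicans in each of the 8 libraries, with CPM from 0 on the vertical axis, the day of the conditioned medium on the horizontal axis and 1 line for each experiment. SDC2 dropped to 69.2 and 67.5 CPM by D4 in the 2 experiments and SDC4 declined at each step, while SDC1 kept levels between 49.7 and 68.9 CPM.

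In the comparison of each medium with D0, SDC2 and SDC4 were the members with the lowest adjusted p at D10, and each stood at about the same fraction of its D0 level. Neither passed the threshold of 0.05 in edgeR's quasi-likelihood test fitted by group, with Benjamini-Hochberg adjustment over 13798 genes. Both passed when the experiment was added as a replicate block, and both passed in DESeq2. With the fit by group 0 of the 7 members were called for any of the 3 media, for which 0%, 0% and 0.29% of all tested genes were called. At an unadjusted p under 0.05 in the same edgeR fit, 2 members were lower in each comparison, against 2.96%, 4.34% and 7.94% of all genes in either direction. With the block 0, 1 and 2 of 7 were called, all lower, against 0.188%, 0.739% and 2.45% of all genes called lower. DESeq2 also called 0, 1 and 2 members, and it called 0.182%, 0.43% and 1.13% of genes lower. The members and the background can be read side by side but not tested, because the genes were chosen with results of these data known.

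SDC2, a syndecan typical of fibroblasts and other mesenchymal cells, lies on chromosome 8 at 96493351 to 96611780 on the plus strand of GRCh38 (ENSG00000169439.11). In order of the medium, from D0 to D10, experiment 1 gave 119, 69.2, 56.1 and 57 CPM of SDC2. Experiment 2 gave 117, 67.5, 59.3 and 58.5 CPM. Both D0 libraries lay above all 6 later libraries, and the 2 experiments were close to each other at every day. The log2 fold change against D0 was -0.79 (SE 0.183) at D4 and -1.03 (SE 0.184) for each of the other media, a 2.05-fold lower level at D10. The adjusted p from edgeR was 0.757, 0.292 and 0.0753 in the fit by group and 0.0516, 0.0117 and 0.00333 with the replicate block, so SDC2 fell at D7 and D10 in the blocked fit and missed the threshold at D4. DESeq2 gave adjusted p of 0.176, 0.00426 and 0.00141. Within experiment 1 the log2 change at D10 was -1.06 and within experiment 2 it was -0.998. The blocked call at D7 was lost when D0 replicate 1, D0 replicate 2, D7 replicate 1 or D7 replicate 2 was left out, with log2 fold changes between -1.08 and -0.986. The blocked call at D10 was lost when D0 replicate 2 was left out, with an adjusted p of 0.0675 from edgeR, while the log2 fold change stayed between -1.063 and -0.997 in all 8 such fits.

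SDC4, the syndecan of focal adhesions, lies on chromosome 20 at 45325288 to 45348424 on the minus strand of GRCh38 (ENSG00000124145.6). In the same order, experiment 1 gave 384, 312, 236 and 198 CPM of SDC4 and experiment 2 gave 468, 391.8, 306 and 195 CPM. Each later medium gave a lower value than the one before it in both experiments, and both D10 libraries lay below the other 6. The group means were 426 ± 60, 352 ± 56.7, 271 ± 49.6 and 197 ± 2.12 CPM. The log2 fold change was -0.28 (SE 0.252) at D4, -0.65 (SE 0.253) at D7 and -1.11 (SE 0.255) at D10, a 2.16-fold lower level at D10. At D10 edgeR's adjusted p was 0.134 in the fit by group and 0.00748 with the replicate block, and DESeq2 gave 0.005, so SDC4 fell at D10 in both of the latter. At D4 and D7 the blocked edgeR adjusted p was 0.792 and 0.134. The blocked call at D10 was lost when either D0 library was left out, with log2 fold changes between -1.26 and -0.93 over the 8 fits.

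The falls of SDC2 and SDC4 had different courses in these libraries. SDC2 had reached 76.5% of its D10 log2 change at D4 and 100% at D7, with 73.7% and 79.3% at D4 in the 2 experiments. SDC4 had reached 24.8% at D4 and 58.3% at D7, with 31.4% and 20.4% at D4. The D4 log2 fold change of SDC4 behind that share was -0.45 when D4 replicate 2 was left out and -0.13 when D4 replicate 1 was, and that of SDC2 stayed between -0.81 and -0.77. All these shares use the same D0 libraries. The step from D4 to D10, which does not use them, was -0.24 on the log2 scale for SDC2, with an adjusted p from edgeR of 0.974 in the fit by group and 0.34 with the block. For SDC4 it was -0.84 (SE 0.254), with an adjusted p of 0.55 in the fit by group and 0.0404 with the block, where the log2 fold change was -0.82. In this comparison the block called 1 of 7 members, against 0.833% of all genes called lower, and the fit by group called 0 members and 0.00725% of all genes, with 1 member and 5.7% of all genes at an unadjusted p under 0.05. DESeq2 called 0 members. The blocked call of SDC4 held in 1 of 8 fits with a library left out.

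SDC1, the syndecan best known from epithelia and plasma cells, lies on chromosome 2 at 20200797 to 20225433 on the minus strand of GRCh38 (ENSG00000115884.10). Its level from D0 to D10 was 50.2, 68.9, 51.8 and 49.7 CPM in experiment 1 and 52.3, 52.6, 51.6 and 64.4 CPM in experiment 2. The groups overlapped, and no day stood apart in both experiments. The log2 fold change at D10 was 0.15 (SE 0.225), with an adjusted p of 0.998 from edgeR in the fit by group and 0.717 with the block. SDC3, a syndecan first known from the nervous system, read 630, 630, 594 and 678 CPM in experiment 1 and 433, 462, 552 and 245 CPM in experiment 2. The D10 libraries of SDC3 were at once the highest and the lowest of the 8. Its log2 fold change at D10 was -0.20 (SE 0.459), and it became -1.10 when D10 replicate 1 was left out and 0.35 when D10 replicate 2 was, so its direction rested on single libraries.

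**Figure D2:**
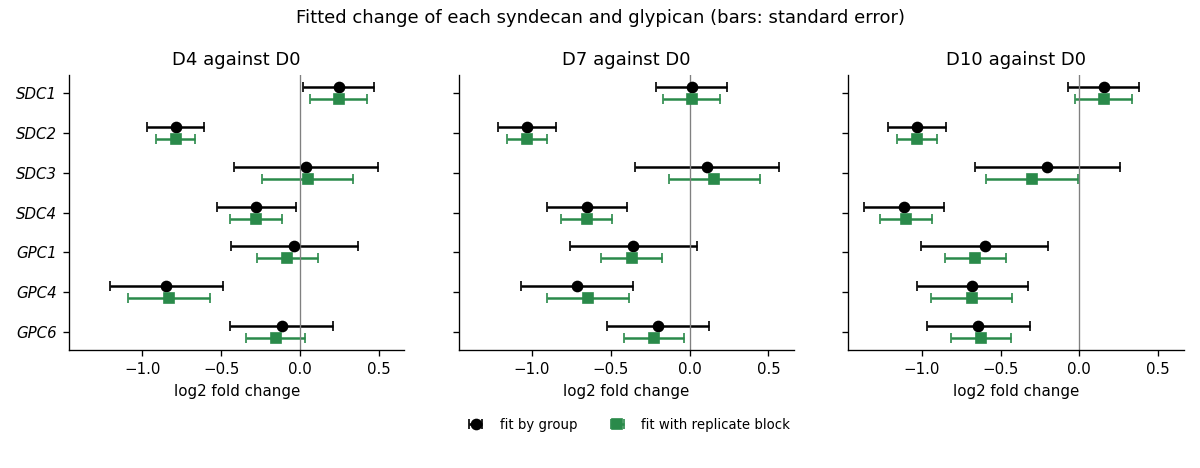
Fitted log2 fold changes against D0 for the 4 syndecans and 3 glypicans at D4, D7 and D10, from edgeR fitted by group (black circles) and with the experiment as a replicate block (green squares), with bars of 1 standard error. SDC2 lies near -0.79 at D4 and -1.03 at D7 and D10, SDC4 moves from -0.28 to -1.11, and SDC1 stays between 0.01 and 0.25.

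To compare the fall of SDC2 with SDC1 and SDC4 without library scaling, the log2 ratio of the counts of each pair was taken within each library. SDC2 over SDC1 was 1.25, 0.006, 0.11 and 0.20 from D0 to D10 in experiment 1 and 1.16, 0.36, 0.20 and -0.14 in experiment 2. The ratio was higher in both D0 libraries than in all later ones. Its mean difference from D0 to D10 was -1.18, with -1.05 and -1.30 in the 2 experiments, and an exact two-sided permutation test of the media within each experiment (8 libraries) gave p = 0.0417. Adjusted over the 3 pairs this became 0.0625, which missed the threshold.

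SDC2 over SDC4 gave log2 ratios of -1.69, -2.17, -2.08 and -1.80 from D0 to D10 in experiment 1 and of -2.002, -2.54, -2.37 and -1.74 in experiment 2. The ratio was lower at D4 and D7 than at D0 within each experiment and had returned to the range of D0 at D10. The mean difference between D10 and D0 was 0.07, with -0.11 in experiment 1 and 0.26 in experiment 2, and the exact permutation test gave p = 0.819 (adjusted 0.819), so a difference between the D10 falls of SDC2 and SDC4 was not detectable in these 8 libraries.

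SDC1 over SDC4 was -2.93, -2.18, -2.19 and -1.995 from D0 to D10 in experiment 1 and -3.16, -2.90, -2.57 and -1.60 in experiment 2. This log2 ratio was lowest at D0 and highest at D10 in both experiments. The mean difference was 1.25, with 0.94 and 1.56 in the 2 experiments, and the exact permutation test gave p = 0.0139, the smallest that this design allows, and 0.0417 after adjustment over the 3 pairs. Relative to SDC1, therefore, SDC4 was lower at D10 beyond the threshold, and SDC2 was lower without passing it. The 2 mean differences were of similar size, 1.25 for SDC1 over SDC4 and -1.18 for SDC2 over SDC1. This test gives its smallest p only where D0 and D10 are the extremes in both experiments. SDC2 over SDC1 in experiment 1 was lowest at D4, at 0.006 against 0.20 at D10. The 2 p-values therefore do not rank the falls of SDC4 and SDC2.

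**Figure D3:**
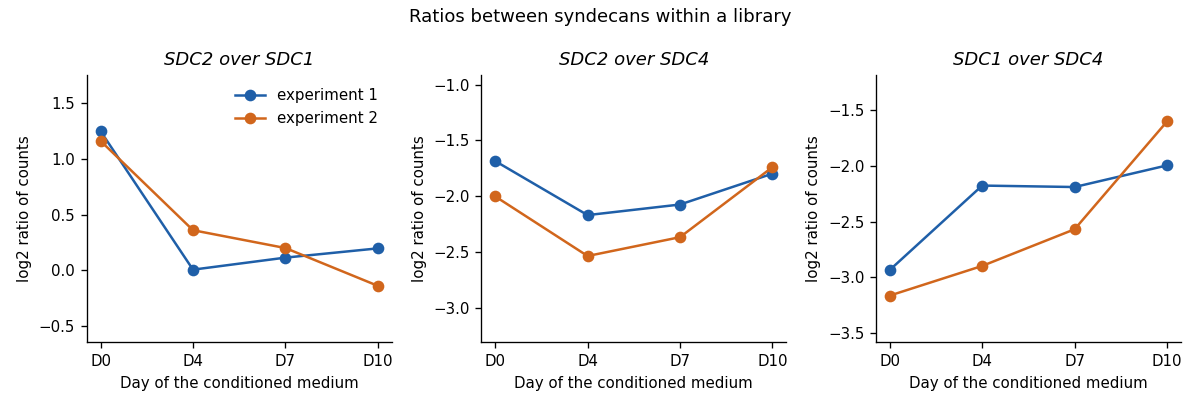
Log2 ratios of the counts of SDC2 over SDC1, SDC2 over SDC4 and SDC1 over SDC4 within each library, against the day of the conditioned medium, with 1 line for each experiment and the same span on each vertical axis. SDC2 over SDC1 drops from 1.25 and 1.16 at D0, SDC2 over SDC4 dips at D4 and comes back to -1.80 and -1.74 at D10, and SDC1 over SDC4 climbs to -1.995 and -1.60.

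The sequences before the start sites are shown for SDC4 and SDC1 because this pair differed past the threshold. RefSeq start sites on GRCh38.p14 were used for 6 of the 7 members, with 2 for SDC1, of which the one nearer to the annotated 5′ end of the gene is given. The sequence before SDC2 was not analysed here. Each line is the 250 bases before the start site on the minus strand, 5′ to 3′, from chr20:45348425-45348674 for SDC4 and chr2:20225476-20225725 for SDC1, with each GC box (GGGCGG on either strand) in capitals.
SDC4: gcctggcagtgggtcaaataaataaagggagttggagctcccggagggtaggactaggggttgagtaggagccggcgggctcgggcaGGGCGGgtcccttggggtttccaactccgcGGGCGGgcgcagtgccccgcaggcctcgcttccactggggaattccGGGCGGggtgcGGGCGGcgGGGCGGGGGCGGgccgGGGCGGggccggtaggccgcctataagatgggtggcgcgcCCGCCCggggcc
SDC1: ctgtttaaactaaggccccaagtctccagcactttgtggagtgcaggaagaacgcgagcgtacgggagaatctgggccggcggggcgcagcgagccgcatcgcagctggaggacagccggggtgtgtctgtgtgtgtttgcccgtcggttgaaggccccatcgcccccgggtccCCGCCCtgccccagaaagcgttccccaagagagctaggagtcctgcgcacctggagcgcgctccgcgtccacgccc

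The window of SDC4 held 8 GC boxes and 73.6% G and C, and that of SDC1 held 1 GC box and 66.4% G and C. The other SDC1 window also held 1. SDC3 held 5, GPC1 held 4, GPC4 held 2 and GPC6 held 0. A GC box was found in 42.6% of all 35116 RefSeq windows of the same length. The AP-1 motif TGACTCA, searched on both strands, was in none of the 7 windows and in 4.2% of all windows. These matches describe the letters and do not show binding.

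The 3 glypicans had lower mean levels at D10 than at D0, with log2 fold changes between -0.68 and -0.60, and none passed the threshold in either edgeR fit or in DESeq2. GPC1 (ENSG00000063660.8, chromosome 2, 240435671 to 240468078, plus strand), the glypican with the highest level here, read 867, 950, 699 and 664 CPM from D0 to D10 in experiment 1 and 674, 554, 504 and 353 CPM in experiment 2. The D10 libraries lay just below the D0 libraries as groups, and experiment 2 was lower than experiment 1 on every day. Its log2 fold change at D10 was -0.60 (SE 0.403), with -0.39 and -0.93 within the 2 experiments and an adjusted p from edgeR of 0.955 by group and 0.105 with the block. Leaving out D10 replicate 1 gave -1.11 and leaving out D10 replicate 2 gave -0.22.

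GPC4 (ENSG00000076716.8, chromosome X, 133300103 to 133415490, minus strand), a glypican that modulates FGF and Wnt signals, read 160, 83, 68.4 and 103 CPM in experiment 1 and 99.1, 61.3, 89.6 and 59.1 CPM in experiment 2. Its D4 and D7 libraries lay below both D0 libraries, and those of D10 overlapped D0. The log2 fold change was -0.85 (SE 0.356) at D4 and -0.68 (SE 0.355) at D10, with an adjusted p from edgeR of 1 and 0.797 by group and 0.356 and 0.203 with the block. With single libraries left out it lay between -1.15 (D0 replicate 2 out) and -0.45 (D0 replicate 1 out) at D4 and between -1.12 (D10 replicate 1 out) and -0.29 (D0 replicate 1 out) at D10. GPC6 (ENSG00000183098.10, chromosome 13, 93226842 to 94407401, plus strand), a glypican of mesenchymal tissues, read 56, 41.3, 42.7 and 39.2 CPM in experiment 1 and 68.7, 73.7, 65.7 and 40.7 CPM in experiment 2. The experiments lay apart until D7 and were together at D10, where both libraries were the lowest of the 8. The log2 fold change of GPC6 at D10 was -0.64 (SE 0.326), with an adjusted p from edgeR of 0.769 by group and 0.116 with the block.

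As a group, 5 of the 7 members were lower at D10 than at D0 in both experiments, SDC1 and SDC3 being the exceptions, while 32.3% of all tested genes were lower in both. The median log2 fold change of the 7 members was -0.12 at D4, -0.36 at D7 and -0.64 at D10, and that of all tested genes was 0.009, -0.0004 and 0.004. With D10 replicate 1 left out, the blocked fit called 6 of 7 members and 1906 of 14358 genes at D10, and with D0 replicate 2 left out it called 0 members and 113 of 14313 genes, against 688 genes with all libraries, so the count over all genes moved with that of the members.

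Summed per kilobase, the 4 syndecans came to 278 ± 3.25 CPM per kilobase at D0 and, in the order of the later media, to 244 ± 1.27, 212 ± 15.2 and 169 ± 41.2. The D10 sum was 71.8% of D0 in experiment 1 and 49.9% in experiment 2. SDC4 made up 53.1% and 63.8% of the syndecan sum at D0 and 38.3% and 53.3% at D10, and in experiment 1 SDC3 had the largest share at D10, at 48.4%. The glypican sum was 154 ± 28.2 CPM per kilobase at D0 and 101 ± 39.8 at D10, which was 74% and 54% of D0 in the 2 experiments, and GPC1 made up between 73.3% and 86.3% of it in every library.

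Most fibroblast markers were lower at D10 as well, by unequal amounts in the 2 experiments. The summed level of the 9 markers was between 33100 and 46800 CPM at D0 and between 10100 and 34700 CPM at D10. These ranges overlapped. Of the 9, 8 were lower at D10 in both experiments, including the collagen genes COL1A1, COL1A2 and COL3A1, against 32.3% of all tested genes. The log2 change of COL1A1 was -0.62 in experiment 1 and -2.75 in experiment 2, and that of COL1A2 was -0.25 and -1.97. PDGFRA, the exception, gave 0.006 and -0.168. The blocked fit called 2 of the 9 markers lower at D10, where it called 2.45% of all genes lower. PDGFRB, a growth factor receptor of mesenchymal cells, fell by 1.37 on the log2 scale in the fit by group (blocked adjusted p = 0.0181 from edgeR). DCN, the matrix proteoglycan decorin, fell by 1.55 (blocked adjusted p = 0.0362 from edgeR). DCN was 2138 and 572 CPM at D10, so D10 replicate 2, the library with the lowest SDC3 and GPC1, was also low in DCN. The part of these levels in the syndecan and glypican values was not tested.

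Of the other genes of the heparan sulfate pathway, 60 were tested. In the fit by group 0, 0 and 1 of them were called at D4, D7 and D10, and with the block 0, 1 and 5, all higher. The 1 gene at D7 and the 5 at D10 are 1.67% and 8.33% of the 60, where 0.507% and 2.54% of all genes were called higher with the block, and the median log2 fold change of the 60 at D10 was 0.12. The lists, that of the ligands included, were chosen with results of these data known. Their shares and the background can be read side by side but not tested. The enzymes that build the chain gave 0 calls in either fit. Among the linker and initiation enzymes the largest value at D10 was that of B3GAT3, which adds the glucuronic acid of the linker, at 0.26, and the 9 of this list ranged around a median of 0.12. Among the polymerases EXTL1 gave the largest value, -1.11, at counts of 5 to 37 reads. The main polymerase subunit EXT1, named after its values were seen, was 696 and 692 CPM at D0, 434 and 470 CPM at D4 and 523 and 563 CPM at D10, with no overlap of D4 or D10 with D0, and its D4 log2 fold change of -0.62 had an adjusted p from edgeR of 1 by group and 0.202 with the block.

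Among the 8 tested sulfation and epimerisation enzymes HS3ST5 had the largest D10 value, a log2 fold change of 1.37 at counts of 4 to 29 reads, and 0 were called. SULF1, which removes 6-O-sulfates from finished chains outside the cell, was 12.7 and 32 CPM at D0 and 7.68 and 2.37 CPM at D10. Its log2 change was -0.71 in experiment 1 and -3.67 in experiment 2, so it differed more between the experiments than SDC2 or SDC4 did, and its adjusted p from edgeR was 0.419 by group and 0.14 with the block. Of the 7 tested shedding and release enzymes 0 were called, and the membrane protease MMP14 gave the largest value, 0.53. ITGB5, an integrin subunit, gave the largest value of the 12 adhesion and tail partners at D10, 0.74, and 0 were called against D0. GIPC1, a scaffold that binds the SDC4 tail, fell between D4 and D10 in the blocked fit only, by 0.70 on the log2 scale in the fit by group (adjusted p = 0.973 from edgeR, 0.0438 with the block).

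Of the pathway genes other than the members, those called against D0 by edgeR were all ligands that bind heparan sulfate. Of 12 ligands tested, 1 was called higher at D10 in the fit by group and 5 with the block, and 0 were called lower in either. In both experiments 8 of the 12 were higher at D10 than at D0 and 4 lower, against 31.1% and 32.3% of all tested genes. The 4 were MDK, PTN, FGF1 and CXCL12, with log2 fold changes of -0.435, -1.19, -0.79 and -1.39. BMP2, a bone morphogenetic protein, was 15 and 10 CPM at D0 and 126 and 308 CPM at D10, with a log2 fold change of 4.11 (SE 0.522) and an adjusted p from edgeR of 0.0379 by group and 0.00118 with the block. With either D0 library left out, or with only the compared groups in the fit, the fit by group called 0 genes at D10, BMP2 included. BMP2 was also the 1 ligand called at D7 with the block (adjusted p = 0.0261 from edgeR). HBEGF, an EGF receptor ligand, was 14.5 and 13.3 CPM at D0 and 48.1 and 33.9 CPM at D10, and the log2 fold change of 1.56 had an adjusted p from edgeR of 0.131 by group and 0.0058 with the block.

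The other 3 ligands rose at D10 only in the blocked fit. FGF7, a growth factor for epithelial cells, was 25.1 and 113 CPM at D0 and 94.1 and 379 CPM at D10, so that the experiments lay far apart while the log2 change was 1.90 and 1.75 within them (adjusted p from edgeR 0.855 by group, 0.000789 with the block). FGF2, which requires heparan sulfate to signal, was 53.3 and 78.2 CPM at D0 and 79.4 and 185 CPM at D10 (adjusted p from edgeR 0.627 and 0.0311). VEGFA, the angiogenic factor, was 62.8 and 97.5 CPM at D0 and 97.2 and 232 CPM at D10 (adjusted p from edgeR 0.652 and 0.0213). Between D4 and D10, 4 of the 12 ligands were lower in both experiments, against 28.1% of all tested genes. FGF1 was the 1 of these 4 called, with a log2 fold change of -1.13 and an adjusted p from edgeR of 0.671 by group and 0.0238 with the block. In that comparison the blocked fit called 4 of the 12 ligands higher, namely BMP2, FGF2, FGF7 and VEGFA, and 1 lower. Of all genes it called 1.72% higher and 0.833% lower.

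**Figure D4:**
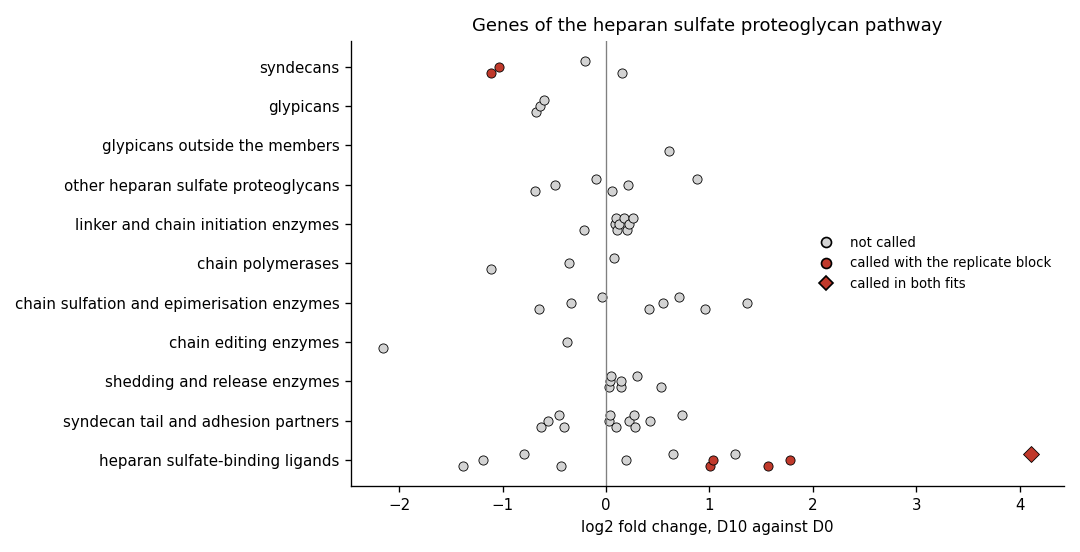
Log2 fold changes at D10 against D0 for each tested gene of the heparan sulfate proteoglycan lists, 1 point per gene and 1 row per list, from edgeR fitted by group. Red points were called with the replicate block, and the diamond, BMP2 at 4.11, was called in both fits. Called points lie in 2 rows, the syndecans below 0 and the ligands above 0.

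The further heparan sulfate proteoglycans gave 0 calls in either edgeR fit, and DESeq2 called 1 of them, NRP1, at D7 (adjusted p = 0.0401). NRP1, a VEGF co-receptor that can carry a heparan sulfate chain, had the largest D10 value of its list. From D0 to D10 it read 72.5, 141, 207 and 182 CPM in experiment 1 and 78.3, 229, 181 and 95.6 CPM in experiment 2, and all 6 later libraries lay above both D0 libraries. Its log2 fold change was 1.30 at D4, 1.37 at D7 and 0.88 at D10, where it had an adjusted p from edgeR of 0.556 by group and 0.188 with the block. GPC2, outside the 8 symbols, was the only other glypican tested and read between 1.55 and 5.92 CPM. GPC5 had at most 1 read in any library and was not tested.

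Genes whose log2 CPM followed each of the called syndecans most closely over the 8 libraries were sought among 9057 genes with a mean of at least 10 CPM. The 8 points share 2 experiments and 4 media, and the values are a description. For SDC2 they were JAZF1 (Pearson r = 0.973), TMEM237 (0.972) and BAMBI (0.971), which had log2 fold changes of -0.70, -0.58 and -1.70 at D4 and -1.03, -0.71 and -1.97 at D10. For SDC4 they were TES (0.987), NREP (0.98) and TSC22D2 (0.96), which had log2 fold changes of -0.39, -0.39 and -0.19 at D4 and -1.48, -1.56 and -0.89 at D10. The 3 genes like SDC2 thus had most of their D10 difference at D4, and the 3 like SDC4 did not, which is the pattern they were chosen for.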

How the data were processed

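Reads of 8 stranded poly(A) libraries had been counted per gene, and the authors deposited raw counts. The deposited RPM columns were not used. The submitters' processing notes name STAR 2.5, DESeq2 and GRCh38, and the strand setting is not given in the sources used here. A header DO was read as D0. Of the identifiers, 99.6% were in GENCODE 29, which gave positions and exon lengths. The exon length of a gene was the union of all its annotated exons.

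Genes were filtered with filterByExpr, scaled with TMM and tested with edgeR 4.0.16 (glmQLFTest, R 4.3.3) in one fit of 8 libraries by group, with Benjamini-Hochberg adjustment over 13798 genes at 0.05. The methods were tested on simulated data. The study used DESeq2, which here (1.42.0) was an alternative, as were a replicate block, other size factors and filters, the compared groups only and leaving out each library. Ratios used a pseudocount of 0.5 and 24 orders of media per experiment.

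Replicate numbers pair the libraries, because both libraries of a group came from separate experiments shared by all groups, and deviations of same-numbered libraries from group means correlated across genes (r between 0.418 and 0.722 in 6 pairs of groups). The block lowered the common dispersion from 0.0792 to 0.0242. P-values of the fits by group, DESeq2 included, rest on the spread between libraries of a group. Those with the block rest on the spread left after the difference between experiments. Those of the ratios come from reordering the media. All of them refer to these libraries only.

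Named genes are the members, each gene of the pathway lists past the threshold in either edgeR fit or else the tested one with the largest D10 change, and for SDC2 and SDC4 the 3 most correlated genes (log2 CPM, prior count 2). Members and lists were chosen with earlier results of these data known. Figures were drawn with Python 3.11.15.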

Additional observations from a re-analysis of the deposited data

Results flagged for a closer look

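The D10 and D4 changes of SDC4 from D0 differed, as tested by the D10 against D4 term of edgeR's quasi-likelihood fit with the replicate block. The log2 fold change was -0.82, the adjusted p was 0.0404, and SDC4 was lower at D10 than at D4 in both experiments, with log2 changes of -0.65 and -1.004. In the fit by group the adjusted p was 0.55, and the blocked call held in 1 of 8 fits with a library left out, the one without D10 replicate 1.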

How the results depend on the processing

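The fit by group called 0 members in each comparison, also under DESeq2's size factors, both other filters, the compared groups only and each library left out. DESeq2 called 1 member at D7 and 2 at D10, and the replicate block 1 at D7, 2 at D10 and 1 in D10 against D4. The block changed no other call of a member. The block with a library left out was added after seeing the data. It called up to 2 members at D4 (2 without either D10 library), between 0 and 2 at D7 (1 without either D4 library, 2 without either D10 library), between 0 and 6 at D10 (1 without D0 replicate 1, 0 without D0 replicate 2, 6 without D10 replicate 1 and 2 otherwise), and 4 in D10 against D4 without D10 replicate 1. Counts over all genes changed as well. Against the block with all libraries, they rose in every comparison without D10 replicate 1 and fell in every comparison without D0 replicate 2. They did not always move with the members. In D10 against D4 without D10 replicate 2, the count over all genes rose while the call of SDC4 was lost. Over all genes at D10 the fit by group called 40, size factors 42, DESeq2 383, no filter 371, at least 10 counts 20, the compared groups only 0, the block 688, and single left-out libraries 0 to 155. DESeq2, the block and no filter called 44, 38 and 21 at D4 and 113, 172 and 93 at D7, where the fit by group called 0, and 149, 352 and 147 in D10 against D4, where it called 1. Ignoring the experiment, the D10 minus D0 log2 ratio of SDC2 over SDC1 was -1.175, with an adjusted p of 0.0214 from an exact permutation test, and SDC2 over SDC4 was 0.262 without replicate 1 and turned to -0.113 without replicate 2. No SDC2 or SDC4 log2 fold change turned in any fit. Those of other members that turned when a library was left out lay, for the fit by group, between -0.209 and 0.339 (SDC3), -0.478 and 0.304 (GPC1) and -0.592 and 0.236 (GPC6) at D4. At D7 they lay between -0.018 and 0.042 (SDC1), -0.139 and 0.402 (SDC3) and -0.544 and 0.078 (GPC6), and at D10 between -0.043 and 0.346 (SDC1) and -1.101 and 0.352 (SDC3). In D10 against D4 they lay between -0.289 and 0.130 (SDC1), -1.152 and 0.314 (SDC3) and -0.283 and 0.515 (GPC4). With the block, values that turned were, at D4, -0.014 and -0.083 (SDC3), 0.104 and 0.019 (GPC1), -0.043 (SDC1) and 0.077 (GPC6), at D7 -0.024 (SDC1) and -0.230 (SDC3), at D10 -0.102 (SDC1) and 0.191 (SDC3), and in D10 against D4 0.199 and 0.155 (SDC1), -0.140 (GPC4) and 0.147 (SDC3). The cause was not tested. A lone library left in a group is assumed to vary like the other groups. With 2 libraries per group, standard errors of the glypicans in the fit by group were between 0.324 and 0.403, and changes of that size were not detectable. Larger log2 fold changes, such as -1.03 for SDC2 and -1.11 for SDC4 at D10, also missed the threshold in that fit. A missed threshold there does not show an unchanged level.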
